A study of Mus musculus with 16 samples.

Results

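The comparison concerns the response of the wild-type mouse liver to 4 months of Western diet. It takes in 8 of the 16 arrays of the study: 4 livers of mice labelled WT on Western diet against 4 livers of mice labelled WT on chow, chosen by those labels alone, and every annotated gene above a signal filter was examined. The study put the livers of 16 male C57BL/6 mice on Illumina expression arrays, 1 array per mouse, in groups of 4 by genotype label and diet. The mice labelled WT are littermates of mice labelled CYP7A1 transgenic (Tg), which form the remaining 8 arrays. Both diets were started at an age of 12 to 14 weeks, and the labels give the age at collection as 6 months. A start at that age and 4 months of diet would end later than 6 months, so these values do not match exactly and are given as stated. The Western diet took 42% of its calories from fat and contained 0.2% cholesterol, whereas the other mice were given a standard laboratory chow. All mice were housed singly and fasted for about 16 h before the livers were taken, so every level below is that of a fasted liver. Livers called fed below are those on Western diet, which were fasted like the chow livers. No source used here names the promoter or the species of the transgene.

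A diet rich in fat and cholesterol loads the liver with sterols and triglyceride. Sterols that accumulate in the endoplasmic reticulum hold the transcription factor SREBP2 inactive, which lowers the enzymes of cholesterol synthesis, and oxidised sterols activate LXR, which drives sterol export and the fat-synthesis regulator SREBP1c. With longer feeding, lipid-laden macrophages gather in the liver, hepatic stellate cells lay down matrix, and hepatocytes can lose part of their specialised programme.

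Signals are given as log2 levels, that is log2 of the background-corrected and quantile-normalised intensity, and differences are Western diet minus chow on that scale. Background was not measured and is taken below as 6.29, the median of the row means and the lowest mean level that a row needed to be kept. A fold against a group mean below it is called a lower bound. Differences of weak genes above it depend on the settings too. Over the alternatives Mmp12, at 2.57, ran from 2.48 to 3.28, and Gnat1, at -1.50, from -1.97 to -1.25. Before normalisation the median signal was 72.7 to 80.6 on the Western diet arrays and 73.3 to 86.6 on the chow arrays. Spearman correlations between arrays were 0.948 to 0.953 within Western diet, 0.931 to 0.940 within chow and 0.928 to 0.942 across the diets. The first principal component of the 8 arrays held 54.9% of the variance and separated the diets, with Western diet replicate 4 closest to chow among its group. The second held 19% and set chow replicate 1 apart. Of the hepatocyte markers, transferrin (Trf) read 14.76, 14.71, 14.78 and 14.78 on Western diet and 14.78, 14.67, 14.78 and 14.83 on chow, near the top of the scale in every liver. The row for albumin (Alb) read only 6.29 to 6.98 in these 8 livers, so it does not stand for the level of that abundant transcript. Cyp7a1, the rate-limiting enzyme of bile acid synthesis, read 10.02 to 12.41 in the 8 livers labelled WT and 6.24 to 7.85 in the 8 labelled Tg. The row thus goes against the genotype labels if it reads the transgene, and the groups are called by their labels throughout.

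Of 7788 genes tested, 1463 (18.8%) differed between the diets in livers labelled WT at an adjusted p under 0.05. Of these, 833 (10.7% of the genes tested) were higher on Western diet and 630 (8.09%) were lower. The test was limma's moderated test on 1 fit of all 4 groups of the study, with p-values adjusted by Benjamini and Hochberg over the 7788 genes. Increases were larger than decreases: the median called increase was 0.50 and the median called decrease -0.35 on the log2 scale, and at least a 2-fold change was seen for 111 increases and 31 decreases. In 1702 genes (21.9%) the 4 Western diet livers did not overlap the 4 chow livers, 849 of them higher and 853 lower. The median difference over all genes tested was -0.03. With the arrays scaled to a common median in place of quantile normalisation, 850 genes were called higher and 804 lower. Lists of genes below are given with the number of tested members called and with their median difference, to be read beside these background values. Of the 833 increases, 65 had a chow mean under the filter level, and of the 630 decreases, 16 had a Western diet mean under it. Weak genes that passed the filter mainly by their level in 1 group can tilt such counts. In whole liver RNA, a change in the number of cells of a type and a change in RNA per cell cannot be told apart.

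**Figure D1:**
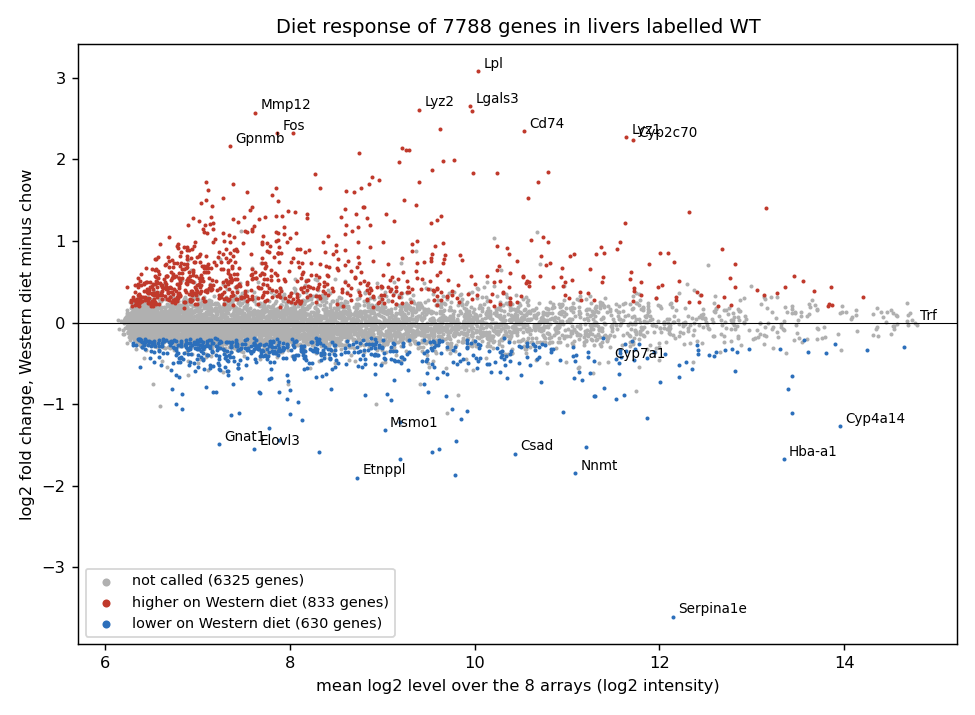
Log2 fold change (Western diet minus chow) of 7788 genes in livers labelled WT, plotted against the mean log2 level over the 8 arrays, with called genes in red (833 higher) and blue (630 lower). Macrophage and antigen-presentation genes lie at the upper edge, and Serpina1e at -3.60 is the lowest point.

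**Figure D2:**
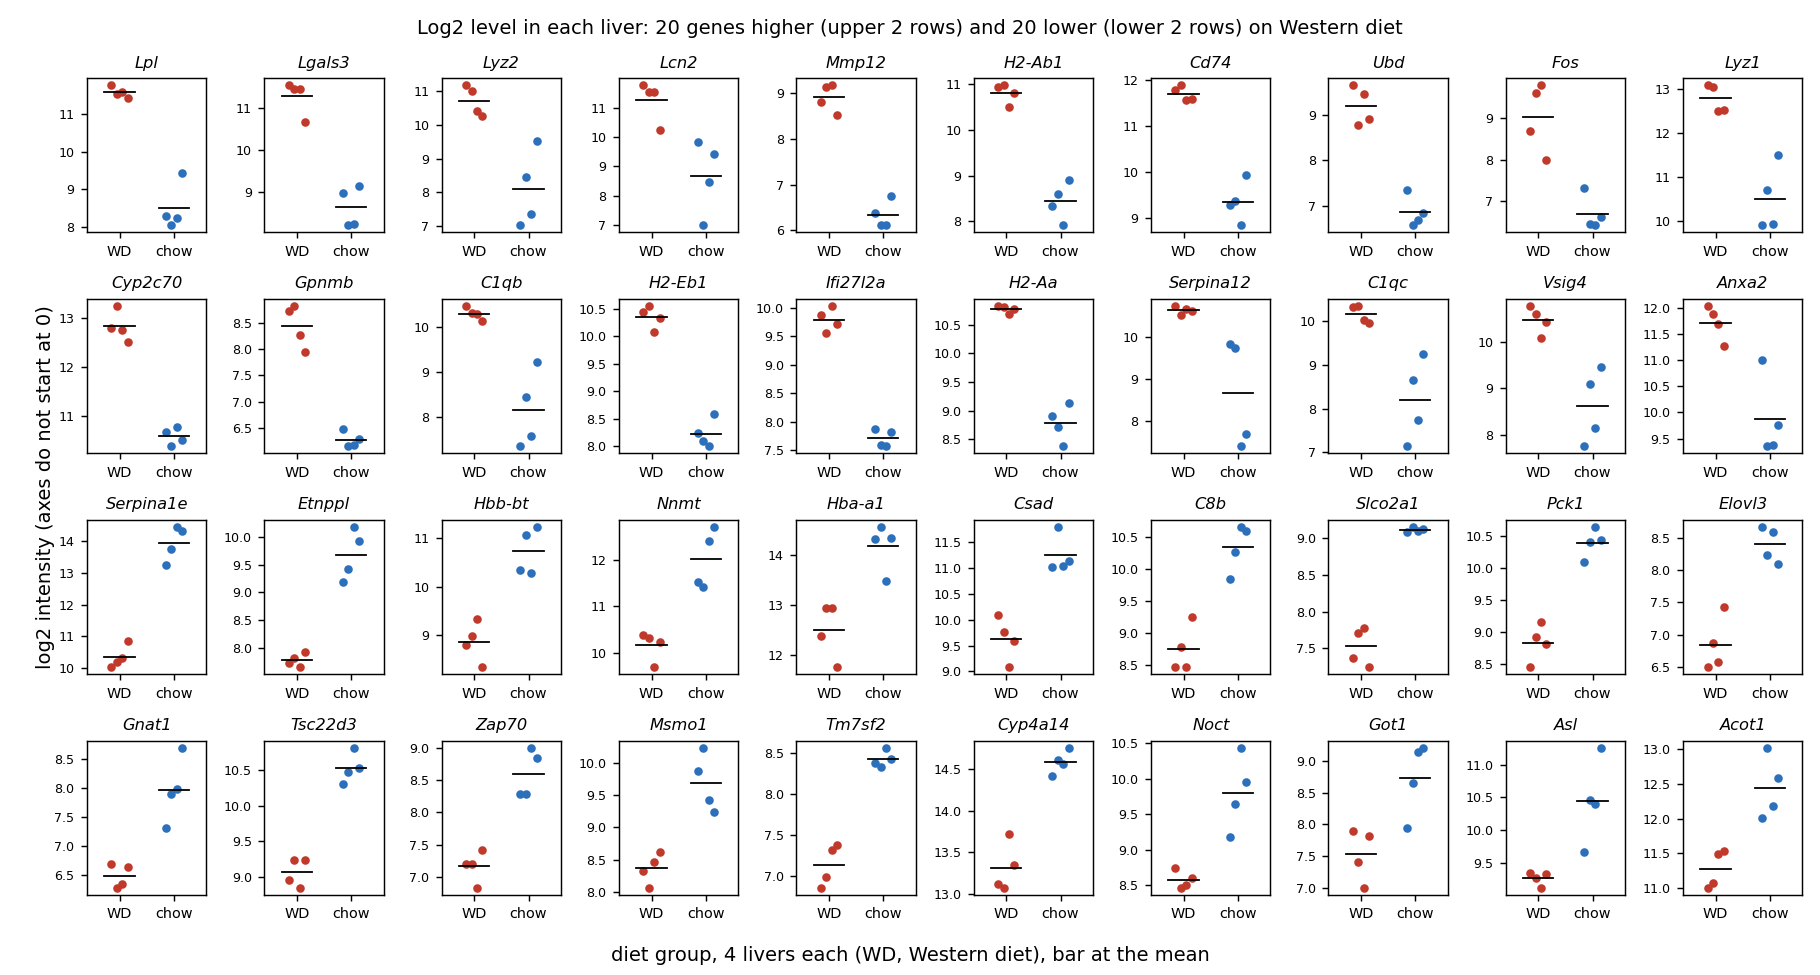
Log2 level in each liver for the 20 largest called increases and the 20 largest called decreases whose groups did not overlap, with 4 Western diet livers at the left and 4 chow livers at the right of each panel and a bar at the group mean. The chow livers of Lyz2, C1qb, C1qc and Serpina12 are spread more widely than the Western diet livers.

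Genes of macrophages and other myeloid cells gave the most increases of any list examined. Of 33 general myeloid genes on the array, 26 passed the signal filter and each of these 26 was called higher, with a median difference of 1.14 and 0 lower. The 7 members under the filter included Itgam, Cybb, Spi1 and Ptprc, and a gene that is bright in 1 group alone could pass the filter only by being high there. Galectin-3 (Lgals3), a lectin of activated macrophages, read 11.54, 11.44, 11.46 and 10.67 on Western diet and 8.96, 8.19, 8.23 and 9.13 on chow. Every Western diet liver was above every chow liver, although Western diet replicate 4 was the lowest of its group. The difference was 2.65 (SE 0.23), a 6.28-fold increase with a limma adjusted p of 7.14e-07.

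Lysozyme, an antibacterial enzyme of phagocytes, was read by rows for both of its near-identical genes, whose signals may share transcripts. Lyz2 had 11.15, 10.98, 10.41 and 10.26 on Western diet and 7.03, 8.46, 7.37 and 9.51 on chow, a difference of 2.61 (SE 0.44, adjusted p = 0.000525). Lyz1 had 13.07, 13.04, 12.49 and 12.52 on Western diet and 9.90, 10.70, 9.94 and 11.50 on chow, a difference of 2.27. In both genes chow replicate 4 lay well above the other chow livers but below all Western diet livers. The 3 chains of complement C1q, which macrophages secrete, rose together: C1qb by 2.15, C1qc by 1.97 and C1qa by 1.27. The same order of chow livers was seen for C1qb, at 10.45, 10.30, 10.28 and 10.13 on Western diet and 7.35, 8.45, 7.58 and 9.21 on chow. Laptm5 (1.83), Cd52 (1.78), the Fc receptor chain Fcer1g (1.65), its relative Tyrobp (1.38), the NADPH oxidase subunit Cyba (1.61) and the macrophage surface protein Adgre1, known as F4/80 (1.37), were also higher. The smallest change among the 26 was in the integrin Itgb2 (0.28, adjusted p = 0.0498), which lost its call when any array but chow replicate 3 was left out (adjusted p up to 0.126).

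A narrower set, named after lipid-associated macrophages of fatty liver and obese fat tissue, moved the same way. Of 16 members on the array 13 were tested, and of these 11 rose and 0 fell, with a median of 0.84. Spp1, Fabp5, Itgax and Atp6v0d2 were not among those tested. Here too a gene bright in 1 group alone could pass the filter only by being high there. The macrophage elastase Mmp12 read 8.82, 9.13, 9.17 and 8.52 on Western diet and 6.38, 6.11, 6.11 and 6.75 on chow, so that 2 of the chow livers were under the background level and the others just above it. Its difference was 2.57 (SE 0.19, adjusted p = 2.35e-07). Gpnmb, a lysosomal membrane glycoprotein of lipid-laden macrophages, read 8.71, 8.81, 8.27 and 7.95 on Western diet and 6.48, 6.15, 6.18 and 6.29 on chow. Its chow mean was under the background level, so the 4.47-fold increase is a lower bound. Trem2, the lipid receptor after which this cell state is often named, read 8.13, 8.07, 7.94 and 7.59 on Western diet and 6.50, 6.16, 6.07 and 6.50 on chow, a difference of 1.62 (SE 0.13). Groups were separate in each of these 3 genes, and Western diet replicate 4 was the lowest of the fed group. The beta-glucan receptor Clec7a (1.60), the tetraspanins Cd63 (1.82) and Cd9 (0.84), the actin-capping protein Capg (0.73) and cathepsin B (Ctsb, 0.51) rose as well. The lysosomal lipase Lipa (0.12) and cathepsin D (Ctsd, 0.02) were not called.

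Promoter windows were taken from RefSeq (build GRCm38.p6, 250 bases before to 50 after the annotated start), which had a window for 6373 of the 7788 genes, and short motifs were looked for on both strands. The letters GAGGAAGT, a core bound by the myeloid factor PU.1, were in the windows of 33 of 646 genes called higher (5.11%), 15 of 520 called lower (2.88%) and 224 of all 6373 (3.51%). In the general myeloid list they were in 4 of 16 windows, those of C1qc, Cd53, Ctss and Pld4. The letters TGANTCA, bound by AP-1, were in 10.2% of windows of genes called higher, 7.88% of those called lower and 6.83% of all. They were in 3 of the 12 windows of the lipid-associated macrophage list, those of Gpnmb, Mmp12 and Trem2. This was not particular to that list: they were in 3 of 14 windows of cholesterol synthesis genes and 4 of 19 of interferon-response genes. In the general myeloid list they were in 1 of 16 windows. Counts and shares of windows here and below are counts of genes, and a gene was counted once if any window given for it held the letters. These shares describe letters in windows and carry no test, and the motifs were searched separately and may overlap each other. The windows of C1qc, Gpnmb and Trem2 are shown as examples chosen after the values were seen, 5′ to 3′ and trimmed to 25 bases after the start, with the PU.1 core (C1qc, on the other strand) or the AP-1 motif (Gpnmb and Trem2) in capitals.
C1qc, chr4:136892890-136893164, minus strand: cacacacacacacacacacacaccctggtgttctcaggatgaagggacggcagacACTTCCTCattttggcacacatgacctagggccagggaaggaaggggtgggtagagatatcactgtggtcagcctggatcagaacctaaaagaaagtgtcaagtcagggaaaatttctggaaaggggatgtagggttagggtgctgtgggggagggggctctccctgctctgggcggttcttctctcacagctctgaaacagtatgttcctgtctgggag
Gpnmb, chr6:49036268-49036542, plus strand: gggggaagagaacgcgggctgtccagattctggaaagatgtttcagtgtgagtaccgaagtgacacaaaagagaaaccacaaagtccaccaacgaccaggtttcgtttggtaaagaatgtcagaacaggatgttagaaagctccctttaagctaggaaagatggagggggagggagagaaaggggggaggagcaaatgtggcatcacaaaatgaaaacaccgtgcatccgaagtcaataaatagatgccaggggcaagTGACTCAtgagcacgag
Trem2, chr17:48346151-48346425, plus strand: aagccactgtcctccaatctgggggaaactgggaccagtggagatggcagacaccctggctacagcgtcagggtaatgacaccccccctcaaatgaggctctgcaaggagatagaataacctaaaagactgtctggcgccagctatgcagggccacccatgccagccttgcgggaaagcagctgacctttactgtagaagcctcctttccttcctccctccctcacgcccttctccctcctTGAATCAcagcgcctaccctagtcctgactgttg

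Markers of the liver's own macrophages, the Kupffer cells, did not move as a block. Of 9 tested, 4 rose and 1 fell, with a median of 0.25. Vsig4, a complement receptor of Kupffer cells, read 10.77, 10.61, 10.08 and 10.43 on Western diet and 7.75, 9.08, 8.14 and 9.45 on chow, and rose by 1.86 (SE 0.31). The Kupffer lectin Clec4f rose by 0.92, and the folate receptor Folr2 by 1.20. The haemoglobin scavenger receptor Cd163 went the other way, at 6.32, 6.36, 6.45 and 6.15 on Western diet and 6.72, 7.41, 7.01 and 7.37 on chow, a difference of -0.81 (adjusted p = 0.000308). Timd4 (-0.06) and Marco (-0.47), both markers of resident Kupffer cells, were near background and not called, and the 4 chow livers spanned those on Western diet in both.

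Other blood leukocytes left little signal. Of 12 neutrophil genes on the array 3 were tested: S100a9 rose by 0.47, a call that held only without Western diet replicate 4 when arrays were left out in turn (adjusted p up to 0.129), and S100a8 (0.61) and Mmp9 (0.08) were not called. Of 19 genes of T and NK cells 4 were tested and 2 rose slightly, Cd8b1 (0.31) and Klrd1 (0.30), both at background on chow. Klrd1 lost its call without Western diet replicate 1, 2 or 3 or chow replicate 1 or 2 (adjusted p up to 0.0948). None of the 3 tested B cell genes was called, with 7 more under the filter. Of 9 dendritic cell genes 2 were tested, and Cd83, a surface protein of activated dendritic cells and macrophages, rose by 0.93 (SE 0.10).

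The MHC class II system, which displays peptides taken up by antigen-presenting cells, had the highest median of the lists examined, 2.05, with all 6 tested genes of 10 on the array called higher. The invariant chain Cd74 read 11.78, 11.88, 11.56 and 11.59 on Western diet and 9.28, 9.37, 8.85 and 9.93 on chow. The beta chain H2-Ab1 read 10.95, 10.97, 10.50 and 10.81 on Western diet and 8.34, 8.59, 7.92 and 8.91 on chow. The groups were more than 1 log2 unit apart in both, with chow replicate 4 the highest of its group. H2-Ab1 rose by 2.37, Cd74 by 2.34, H2-Eb1 by 2.11 and H2-Aa by 1.99, with SE of 0.15 to 0.19. The peptide-loading subunits H2-DMa (1.65) and H2-DMb1 (1.42) rose too, while Ciita, the master regulator of the class, stayed under the filter. The class I system was close to level: 5 of 16 tested genes rose by 0.20 to 0.56 and 0 fell, with a median of 0.13. That count was 1 without Western diet replicate 3 or 4 or chow replicate 3, 2 without chow replicate 2 or with median scaling, and 3 without Western diet replicate 1 or 2 or chow replicate 4, and the class I light chain B2m, at 0.20, turned to -0.02 with median scaling.

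The letters ATTGG, bound by the factor NF-Y and part of the Y element of class II promoters, were in all 4 class II windows that were present, on either strand, against 44% of all windows and 40.4% of those of genes called higher. Windows of H2-Aa and H2-Eb1 are shown for the list that rose most, with matches to ATTGG or its reverse complement in capitals.
H2-Aa, chr17:34287799-34288073, minus strand: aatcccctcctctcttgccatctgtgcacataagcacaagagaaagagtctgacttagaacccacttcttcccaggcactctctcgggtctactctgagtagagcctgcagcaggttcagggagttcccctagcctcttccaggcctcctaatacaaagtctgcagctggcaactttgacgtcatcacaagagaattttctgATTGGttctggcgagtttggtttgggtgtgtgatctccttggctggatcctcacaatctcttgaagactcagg
H2-Eb1, chr17:34305617-34305891, plus strand: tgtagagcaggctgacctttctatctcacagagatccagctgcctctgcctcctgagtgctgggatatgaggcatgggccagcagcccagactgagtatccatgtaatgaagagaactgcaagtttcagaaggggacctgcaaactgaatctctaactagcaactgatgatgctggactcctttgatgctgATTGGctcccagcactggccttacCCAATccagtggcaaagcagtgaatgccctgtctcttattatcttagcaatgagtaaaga

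Interferon-response genes rose in part. Of 23 tested, 9 rose and 0 fell, with a median of 0.28. Ubd, a ubiquitin-like protein induced by interferon gamma and TNF, read 9.64, 8.78, 9.46 and 8.90 on Western diet and 7.36, 6.58, 6.69 and 6.85 on chow, a rise of 2.32 (SE 0.18). Ifi27l2a, an interferon-induced mitochondrial protein, read 9.87, 9.56, 10.03 and 9.71 on Western diet and 7.88, 7.59, 7.58 and 7.82 on chow, and rose by 2.08. Oasl2 (0.99), Ifit2 (0.81), Gbp3 (0.80), Gbp2 (0.62), Irf1 (0.56) and Irf8 (0.50) followed with smaller steps. Classical members such as Isg15 (0.10), Irf7 (0.20), Rsad2 (-0.12) and Stat2 (-0.17) were not called. The interferon element GAAANNGAA was in 10 of 19 windows of the list (52.6%) and in 8.69% of all windows, and genes called and not called both held it. Ifit3, which rose by 0.57 and lost its call without Western diet replicate 3 or 4 or chow replicate 1 or 2 (adjusted p up to 0.0771), has 3 such elements in its window, shown here in capitals.
Ifit3, chr19:34583279-34583553, plus strand: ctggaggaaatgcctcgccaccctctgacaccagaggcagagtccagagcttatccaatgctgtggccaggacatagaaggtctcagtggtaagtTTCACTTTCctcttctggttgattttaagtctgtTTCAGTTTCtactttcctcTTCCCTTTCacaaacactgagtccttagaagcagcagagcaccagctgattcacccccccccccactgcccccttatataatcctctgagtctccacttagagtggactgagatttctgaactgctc

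Of 43 chemokines, cytokines and sensors of microbial products on the array, 26 passed the signal filter, and of these 17 rose and 2 fell. The neutrophil-attracting chemokine Cxcl1 read 10.31, 10.37, 10.45 and 9.89 on Western diet and 7.76, 8.23, 9.09 and 9.05 on chow, a rise of 1.72 (SE 0.39). Interleukin-1 beta (Il1b) read 7.87, 7.80, 7.93 and 7.49 on Western diet and 6.21, 6.37, 6.35 and 6.30 on chow. All 4 chow livers lay close to background, and the gene rose by 1.47. The T cell and monocyte chemokines Ccl4 (1.24), Ccl5 (1.19), Cxcl16 (1.14), Ccl6 (0.96) and Ccl2 (0.51), the inflammasome protease Casp1 (1.10) and the receptor Tlr2 (0.87) were higher. For Ccl2 and Ccl6 the chow mean was under background, so these differences are lower bounds. Cxcl12 (-0.31) and Ccl25 (-0.39) were lower, though Cxcl12 lost its call without Western diet replicate 2 or 3 or chow replicate 2 (adjusted p up to 0.102) and Ccl25 without Western diet replicate 3 or chow replicate 2 or 3 (up to 0.0575).

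Immediate-early genes, which stimuli induce within minutes, were higher in 10 of 16 tested members with 0 lower (median 0.81). Fos read 8.70, 9.60, 9.79 and 8.0 on Western diet and 7.31, 6.46, 6.42 and 6.63 on chow. Its groups did not overlap, but the Western diet livers were spread from 8.0 in replicate 4 to 9.79 in replicate 3. Fos rose by 2.32 (SE 0.39), its AP-1 partner Jun by 1.05, the phosphatase Dusp1 by 1.73, the growth-arrest gene Gadd45a by 1.24, the zinc-finger factor Klf6 by 1.08 and the mRNA-decay factor Zfp36 by 0.84. Egr1 differed by 1.11 without passing the test (adjusted p = 0.102). The mean of the list over livers was 0.33 to 1.15 above the chow mean on Western diet, lowest in replicate 4, against -0.04 to 0.05 on chow.

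Matrix genes rose moderately and together. Of 11 tested collagens 8 rose and 0 fell (median 0.64), and of 27 tested genes of stellate cells and matrix 20 rose and 0 fell (median 0.52). The tissue inhibitor of metalloproteinases Timp1 read 7.41, 7.34, 7.26 and 6.86 on Western diet and 6.36, 6.07, 5.98 and 6.28 on chow, at least a 2.07-fold increase since chow was at background. Collagen I (Col1a1) read 7.24, 7.15, 7.17 and 6.72 on Western diet and 6.86, 5.93, 6.21 and 6.25 on chow, where replicate 1 overlapped the fed livers. It rose by 0.76 (adjusted p = 0.00287). Collagen III (Col3a1, 0.73), basement membrane collagen IV (Col4a1, 0.78), lumican (Lum, 1.12), the gelatinase Mmp2 (1.0), the matrix glycoprotein Sparc (0.95), biglycan (Bgn, 0.81) and decorin (Dcn, 0.72) were higher. Smooth-muscle actin (Acta2), the marker of contractile activated stellate cells, was not called, at 7.23, 7.13, 6.90 and 6.79 on Western diet and 6.98, 6.59, 7.22 and 7.09 on chow. Desmin (Des) differed by 0.14 and was not called either. The retinol-storing enzyme of quiescent stellate cells, Lrat, was higher by 0.47 (adjusted p = 0.00465).

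Endothelial markers were higher in 9 of 18 tested genes with 0 lower and a median of 0.33, among them the sinusoidal scavenger receptor Stab2 (0.69), Plvap (0.79), Ramp2 (0.72) and the angiopoietin receptor Tek (0.66). Pecam1 (0.12) and Vwf (0.12) were not called, and the count was 5 without Western diet replicate 2 or replicate 3. Of the cytoskeletal and calcium-binding genes, 12 of 24 rose and 1 fell. Annexin A2 (Anxa2), a membrane-binding protein, read 12.03, 11.87, 11.69 and 11.28 on Western diet and 11, 9.36, 9.39 and 9.75 on chow, with chow replicate 1 close to the fed livers. It rose by 1.84 (SE 0.27), S100a11 by 1.84, the actin-sequestering Tmsb4x by 1.35 and the hepatocyte keratin Krt8 by 0.86. Galectin-4 (Lgals4) fell by 0.63. None of the 3 tested biliary markers was called, Krt7 among them (0.13).

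Lysosomal genes were higher in 13 of 31 tested members and lower in 2, with a median of 0.16. The asparaginyl endopeptidase Lgmn read 10.22, 10.17, 10.03 and 9.93 on Western diet and 7.97, 9.08, 8.17 and 9.37 on chow and rose by 1.44. Cathepsin S (Ctss), a protease of antigen-presenting cells, rose by 1.01, the membrane protein Lamp1 by 0.50, and the hydrolases Hexa by 0.54 and Man2b1 by 0.52. Scarb2 (-0.45) and progranulin (Grn, -0.44) were lower, Grn with a call that was lost without Western diet replicate 2, 3 or 4 or chow replicate 2 or 4 (adjusted p up to 0.0886). The CLEAR element TCACGTGA, a site of lysosomal gene regulation, was in 4 of 25 windows of the list (16%) and in 2.21% of all windows, but in only 2.17% of those of genes called higher.

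**Figure D3:**
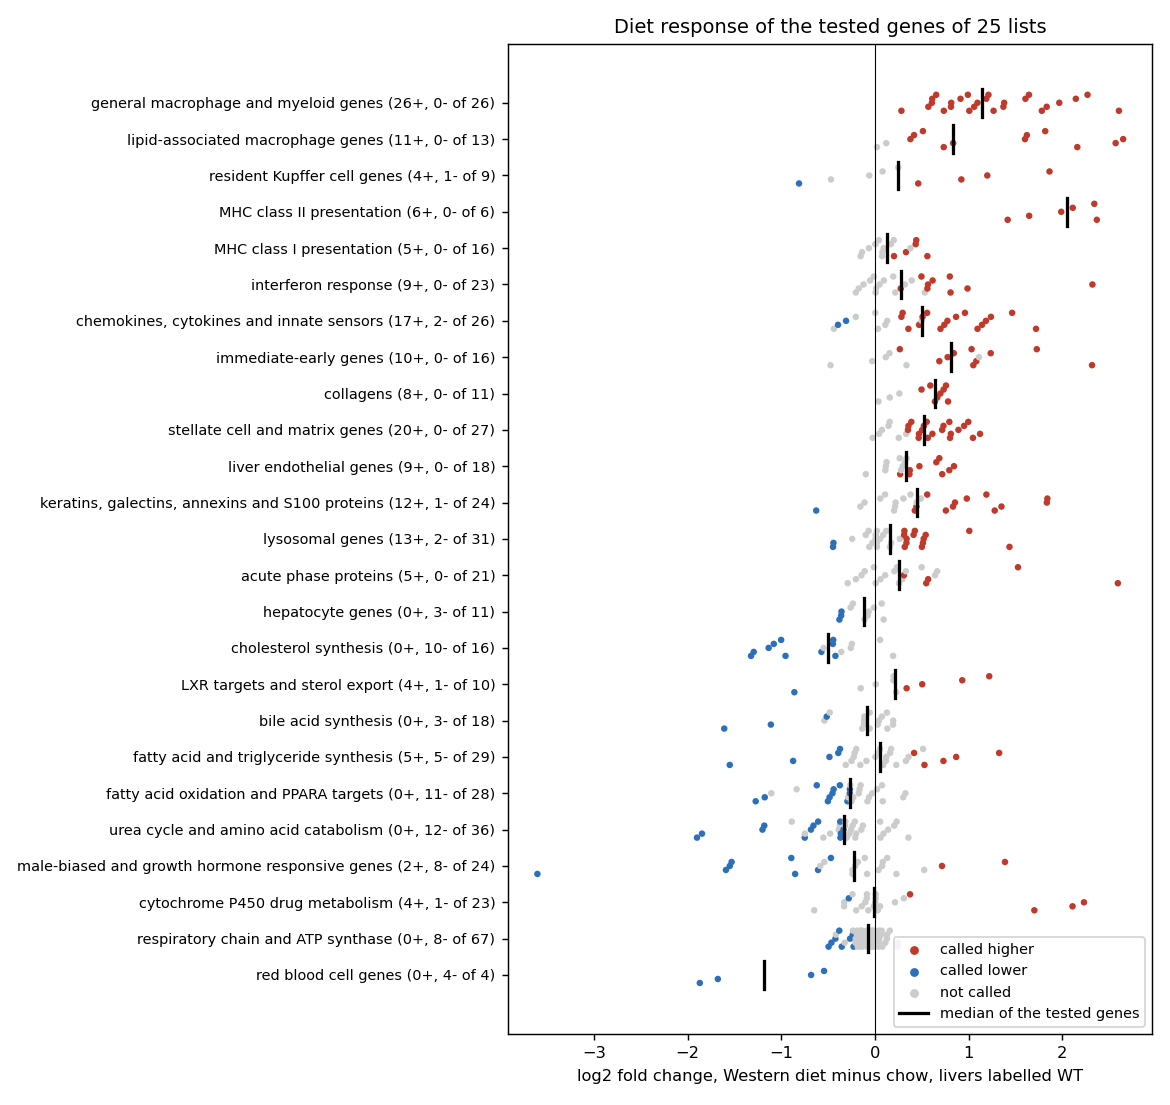
Log2 fold change (Western diet minus chow, livers labelled WT) of each tested gene of 25 lists, coloured by call, with a bar at the list median and the numbers called higher (+) and lower (-) beside each name. Myeloid, MHC class II and matrix lists lie right of 0, and cholesterol synthesis, red blood cell and amino acid lists lie left.

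In metabolism the clearest shift was in cholesterol synthesis. Of 16 tested enzymes 10 fell and 0 rose, with a median of -0.50. The sterol 4-methyl oxidase Msmo1 read 8.32, 8.07, 8.46 and 8.61 on Western diet and 9.87, 10.23, 9.42 and 9.23 on chow, a difference of -1.32 (SE 0.17, adjusted p = 3.79e-05). The sterol reductase Tm7sf2 read 6.85, 6.99, 7.31 and 7.37 on Western diet and 8.38, 8.33, 8.56 and 8.43 on chow, a difference of -1.29 (SE 0.12). The chow livers were the higher group without overlap in both. Lanosterol demethylase (Cyp51, -1.14), Hsd17b7 (-1.08), the farnesyl diphosphate synthase Fdps (-0.95) and lanosterol synthase (Lss, -0.57) fell likewise. Squalene epoxidase (Sqle) fell to 6.27, 6.17, 6.39 and 6.24 on Western diet, at background, against 7.36, 7.83, 6.90 and 7.0 on chow, so its 2.00-fold decrease is a lower bound.

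Pmvk, which makes mevalonate pyrophosphate, fell by 0.45 (adjusted p = 0.00124). The reductase Dhcr7 (-0.45), which makes cholesterol from its last precursor, and the demethylation enzyme Nsdhl (-0.42) fell too. Other members were less clear. Hmgcs1, which makes HMG-CoA, read 11.89, 11.70, 11.81 and 11.66 on Western diet and 12.85, 12.26, 11.91 and 11.48 on chow. Its chow livers were widely spread and overlapped the fed ones, and the difference of -0.36 did not pass the test (adjusted p = 0.202). Idi1 (-0.55), Mvd (-0.25), Ebp (-0.26), Lbr (0.06) and Sc5d (0.19) were not called. Among 6 tested regulators of sterol sensing and uptake, 4 fell: the sterol carrier Stard4 by 0.82, Rdh11 by 0.50, the SREBP brake Insig1 by 0.40 and the SREBP escort Scap by 0.34. Scap lost its call without Western diet replicate 1, 2 or 4 or chow replicate 1 or 3 (adjusted p up to 0.073). Srebf2 itself, the gene of SREBP2, differed by -0.21 and was not called.

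The NF-Y motif ATTGG, whose factor works beside SREBP, was in 14 of 14 windows of cholesterol synthesis genes, against 44% of all windows and 48.5% of those called lower. It was in windows of called and uncalled members alike. A sterol element, searched as TCACNCCAC, was in 1 of these 14 windows, that of Hmgcs1, and in 1.49% of all. Msmo1 and Hsd17b7, each with 3 matches to ATTGG on either strand in capitals, are shown for the members that fell.
Msmo1, chr8:64733554-64733828, minus strand: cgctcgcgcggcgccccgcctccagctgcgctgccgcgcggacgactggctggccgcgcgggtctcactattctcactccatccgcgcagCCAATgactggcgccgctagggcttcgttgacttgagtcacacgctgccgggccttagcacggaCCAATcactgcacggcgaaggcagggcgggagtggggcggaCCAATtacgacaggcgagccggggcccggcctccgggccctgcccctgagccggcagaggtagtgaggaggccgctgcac
Hsd17b7, chr1:169969181-169969455, minus strand: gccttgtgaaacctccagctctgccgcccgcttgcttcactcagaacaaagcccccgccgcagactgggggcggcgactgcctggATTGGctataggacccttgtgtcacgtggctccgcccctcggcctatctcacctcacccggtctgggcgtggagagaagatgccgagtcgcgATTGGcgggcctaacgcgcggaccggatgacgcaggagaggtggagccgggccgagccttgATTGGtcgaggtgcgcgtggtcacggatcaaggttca

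Of 10 tested LXR-related and sterol export genes 4 rose, 1 fell and 5 were not called, with a median of 0.21. The sterol exporters Abcg5, Abcg8 and Abcg1 were among those that rose. The LXR target Abcg5, which with Abcg8 pumps cholesterol into bile, read 12.38, 12.41, 11.91 and 12.25 on Western diet and 10.87, 10.94, 11.44 and 10.82 on chow, a rise of 1.22 (SE 0.17). Abcg8 read 11.10, 10.99, 10.22 and 10.52 on Western diet and 9.81, 9.73, 10.06 and 9.50 on chow, a rise of 0.93. Groups were separate in both, by less in Abcg8, whose chow replicate 3 came close to the lowest fed liver. The cholesterol exporter Abcg1 (0.50) and the lysosomal sterol carrier Npc2 (0.34) also rose, so that 4 of 10 tested LXR-related genes were higher, Npc2 without a call when Western diet replicate 1 or 3 was left out (adjusted p up to 0.0683). Phospholipid transfer protein (Pltp), another LXR target, moved against this at 7.12, 7.31, 7.32 and 7.24 on Western diet and 7.93, 8.52, 7.71 and 8.29 on chow, a fall of 0.86 that lost its call without Western diet replicate 1 or chow replicate 2 (adjusted p up to 0.0618).

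The enzymes of bile acid synthesis changed little as a group, with 3 of 18 tested genes lower, 0 higher and a median of -0.08. Cyp7a1 was not called, at 11.59, 10.81, 10.02 and 12.41 on Western diet and 11.69, 12.27, 11.50 and 11.30 on chow. Its Western diet livers spanned more than 2 log2 units, above and below the chow livers, and the difference was -0.48 (SE 0.42, adjusted p = 0.458). The 12-alpha-hydroxylase Cyp8b1, which sets the share of cholic acid, read 12.84, 12.04, 12.92 and 13.73 on Western diet and 14.08, 13.95, 14.0 and 13.94 on chow. It fell by 1.11 (adjusted p = 0.0148, and 0.0545 without Western diet replicate 2). Csad, which makes the taurine used for bile acid conjugation, read 10.10, 9.76, 9.09 and 9.60 on Western diet and 11.01, 11.80, 11.04 and 11.14 on chow, a fall of 1.61. Cyp27a1 (-0.12), Cyp7b1 (-0.54), the bile acid receptor gene Nr1h4 (-0.10) and the conjugating enzyme Baat (-0.11) were not called. Among transporters and sensors, the bile salt export pump Abcb11 rose by 0.64 (SE 0.13), the uptake carrier Slco1b2 by 0.33 and Slc51b by 0.44, while the FGF co-receptor Klb fell by 0.43 and Slco1a4 by 0.75. Of these, Slco1b2 lost its call with median scaling. Slc51b lost it without any 1 array but Western diet replicate 4 and chow replicates 1 and 3 (adjusted p up to 0.096), and Slco1a4 without any 1 but Western diet replicate 4 and chow replicate 1 (up to 0.117).

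Fat-synthesis genes were divided, with 5 higher and 5 lower of 29 tested and a median of 0.05. Thrsp, a lipogenic factor known as Spot14, read 9.24, 8.87, 8.68 and 8.63 on Western diet and 8.06, 7.54, 7.47 and 7.04 on chow, a rise of 1.33 (SE 0.31). The regulator Srebf1 read 7.43, 7.58, 7.02 and 7.0 on Western diet and 6.67, 6.41, 6.32 and 6.16 on chow, and rose by 0.87. Acetyl-CoA carboxylase (Acaca, 0.73) and the elongase Elovl6 (0.53) rose with it. Fatty acid synthase (Fasn, 0.12) and the desaturase Scd1 (0.12) were not called, and Scd1 was near the top of the scale in all 8 livers. The elongase Elovl3, a gene expressed mainly in male liver, read 6.50, 6.87, 6.58 and 7.42 on Western diet and 8.66, 8.24, 8.59 and 8.09 on chow, a fall of 1.55. The phosphatidate phosphatase Lpin1 (-0.87), Elovl2 (-0.49), Dgat1 (-0.37) and Lpin2 (-0.39) also fell. That count of 5 was 2 without chow replicate 3, where Lpin1, Elovl2 and Lpin2 lost their calls (adjusted p over all settings up to 0.0522, 0.0769 and 0.147), and 8 with median scaling. Lpin2 and Elovl2 also depended on other single arrays.

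Genes of fatty acid oxidation and other PPARA targets were lower in 11 of 28 tested members and higher in 0, with a median of -0.27. The microsomal omega-hydroxylase Cyp4a14 read 13.12, 13.07, 13.72 and 13.35 on Western diet and 14.42, 14.61, 14.56 and 14.76 on chow, a difference of -1.27 (SE 0.18). Its chow values were near the top of the scale, where a difference may be understated. The thioesterase Acot1 read 11, 11.07, 11.49 and 11.53 on Western diet and 12.01, 13.02, 12.18 and 12.59 on chow, a difference of -1.18. Both were lower in every Western diet liver than in any chow liver. The mitochondrial carnitine enzymes Cpt2 (-0.50) and Crat (-0.48) and the carnitine carrier Slc25a20 (-0.45) fell too. Ppara itself (-0.06), Acadm (-0.17), Fgf21 (0.30) and Pdk4 (0.08) were not called. The count of 11 ranged from 6 (without Western diet replicate 2) to 18 (median scaling), and was 7 without Western diet replicate 1 or 3 or chow replicate 2 or 3.

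The largest increase of any gene was that of lipoprotein lipase (Lpl), which releases fatty acids from circulating triglyceride and is scarcely made by adult hepatocytes. It read 11.77, 11.53, 11.59 and 11.44 on Western diet and 8.28, 8.04, 8.24 and 9.44 on chow. The 4 fed livers lay close together, while chow replicate 4 stood more than 1 log2 unit above the other chow livers and still far below the fed ones. The rise was 3.08 (SE 0.27), 8.46-fold, with a limma adjusted p of 1.03e-06. Other genes of lipid droplets and lipid uptake were mostly level: of 21 tested, 3 rose and 3 fell. Beside Lpl, Pparg rose by 0.34 and Hsd17b11 by 0.75, and both lost their calls without any 1 of Western diet replicate 1 and chow replicates 3 and 4 (adjusted p up to 0.0723 and 0.157), Hsd17b11 also without 3 further arrays. Angptl4, a secreted inhibitor of Lpl, fell by 0.94 (SE 0.14), the droplet protein of oxidative tissue Plin5 by 0.59 and the monoglyceride lipase Mgll by 0.28, a call lost without any 1 array but Western diet replicate 4 and chow replicates 1 and 4 (adjusted p up to 0.0741). Plin2 (-0.29) and Cidec (0.30), droplet proteins linked with steatosis, were not called, and Cd36 was under the filter. Among 14 apolipoprotein and assembly genes, Apoa4 rose by 1.40, at 13.88, 13.84, 13.94 and 13.78 on Western diet and 13.02, 12.16, 11.80 and 12.85 on chow, and Apoc2, the activator of Lpl, by 0.83. Lcat (-0.42) and Mttp (-0.31) fell. Apoe (0.12), Apoa1 (0.10) and Apoc3 (-0.03) were not called, though 8 members were called lower with median scaling.

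Genes of amino acid catabolism were lower in part, as was 1 gene of gluconeogenesis, Pck1. Of 36 tested genes of the urea cycle and amino acid breakdown 12 fell and 0 rose, with a median of -0.33. Etnppl, which breaks down phosphoethanolamine, read 7.72, 7.81, 7.65 and 7.92 on Western diet and 9.19, 9.41, 10.18 and 9.92 on chow, a fall of 1.90 (SE 0.24). The nicotinamide methyltransferase Nnmt read 10.39, 10.33, 9.71 and 10.23 on Western diet and 11.53, 11.42, 12.40 and 12.70 on chow, a fall of 1.85. The groups of both were separate, and chow replicates 3 and 4 were above chow replicates 1 and 2. Argininosuccinate lyase (Asl), a urea cycle enzyme, fell to 9.35, 9.26, 9.12 and 9.33 on Western diet, against 9.67, 10.46, 10.39 and 11.26 on chow. Cytosolic aspartate aminotransferase (Got1) had 7.90, 7.41, 7.0 and 7.82 on Western diet and 7.94, 8.65, 9.13 and 9.21 on chow, with the highest fed and the lowest chow liver almost level. Ass1 fell by 0.66, Ahcy by 0.75 and Cbs by 0.61, while Cps1 (-0.26) and Otc (0.06) were not called. Pck1, the gatekeeper of gluconeogenesis, read 8.46, 8.92, 9.15 and 8.81 on Western diet and 10.09, 10.40, 10.63 and 10.43 on chow, a fall of 1.55. Of 20 tested genes of glucose metabolism it was the only one called lower, Pygl, glycogen phosphorylase, was the only one called higher (0.34, a call lost with median scaling and without Western diet replicate 1 or 2 or chow replicate 2 or 4, adjusted p up to 0.448), and G6pc (-0.13) and Fbp1 (-0.12) were not called. Without Western diet replicate 3, 7 genes of the amino acid list were called lower, with median scaling 18 were, and without chow replicate 1, 4 were called higher.

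Several genes typical of the growth hormone pattern of male liver fell. The alpha-1 antitrypsin copy Serpina1e had the largest decrease of any gene, at 10.02, 10.17, 10.31 and 10.86 on Western diet and 13.24, 13.75, 14.45 and 14.33 on chow. The difference was -3.60 (SE 0.37, 12.2-fold lower), and near-identical copies of the family may share its signal. Of 24 tested male-biased and growth hormone responsive genes 8 fell and 2 rose, with a median of -0.22. The complement component C8b read 8.47, 8.78, 8.47 and 9.25 on Western diet and 9.83, 10.27, 10.65 and 10.59 on chow, a fall of 1.59. Igf1, the growth factor that growth hormone induces in liver, read 10.94, 10.85, 10.65 and 10.86 on Western diet and 11.45, 11.29, 11.64 and 11.34 on chow, a fall of 0.61 (SE 0.09), and its carrier Igfals fell by 0.47, a call lost without chow replicate 2 (adjusted p up to 0.0505). Cyp4a12a, at 9.07, 9.88, 10.83 and 11.97 on Western diet and 12.29, 12.04, 12.24 and 11.30 on chow, ran from far below chow in replicate 1 to level with it in replicate 4. Its fall of 1.53 was called at an adjusted p of 0.0184, which was lost without Western diet replicate 1 or 2 or chow replicate 3 (up to 0.0703). The list mean itself was -0.84, -0.47, -0.32 and -0.05 in the 4 fed livers against -0.19 to 0.17 in the chow livers, so the groups met at replicate 4. Mup20 (0.72) and Cish (1.39) were higher. Mup20 lost its call without Western diet replicate 4 or chow replicate 3 and with median scaling (adjusted p up to 0.135), and Cish without Western diet replicate 2 or 3 or chow replicate 1, 3 or 4 (up to 0.154). The STAT element TTCNNNGAA, through which growth hormone acts, was in 5 of 17 windows of the list (29.4%), 8.22% of all windows and 7.31% of those of genes called lower. It was also in 6 of 19 windows of the interferon list (31.6%), so it was not particular to the male-biased list.

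Cytochrome P450 genes of drug metabolism stayed level in most cases, with 4 higher and 1 lower of 23 tested and a median of -0.01. Cyp2c70, which makes the muricholic acids of mouse bile, had the largest rise of the 23, at 12.80, 13.24, 12.76 and 12.50 on Western diet and 10.68, 10.39, 10.79 and 10.52 on chow. It rose by 2.23 (SE 0.22). Cyp2b9, a P450 typical of female liver, read 10.59, 10.18, 10.83 and 9.67 on Western diet and 10.75, 7.98, 6.77 and 7.34 on chow. Chow replicate 1 lay among the fed livers, and the rise of 2.11 (adjusted p = 0.0425) was called without chow replicate 1 or Western diet replicate 4 but not without any other array (adjusted p up to 0.141). Its relative Cyp2b13 rose by 1.70, also with chow replicate 1 in the fed range. Both belong to a list of genes typical of female liver, of which 5 were tested, 2 rose and 1 fell, with a median of -0.30. The faller was the steroid hydroxylase Cyp17a1, at 8.37, 8.61, 8.14 and 8.33 on Western diet and 9.70, 8.26, 10.71 and 11.47 on chow. Chow replicate 2 lay in the fed range, and the difference of -1.67 (adjusted p = 0.0276) lost its call without Western diet replicate 1, 3 or 4 or chow replicate 3 or 4 and in a fit of only the 8 livers labelled WT (adjusted p up to 0.0888). Cyp2a12 (0.38) was also called higher and Cyp2u1 (-0.28) lower, and both lost their calls without single arrays (adjusted p up to 0.285 and 0.138 over all settings). Cyp3a11 (0.21), Cyp2e1 (-0.01) and Cyp1a2 (-0.33) were not called. Of 45 tested genes of conjugation and oxidation, 2 rose, Fmo5 (0.71) and Adh1 (0.39), and 7 fell, including Sult1a1 (-0.59) and Gstp1 (-0.58). Adh1 lost its call with median scaling and without Western diet replicate 1 or chow replicate 3 or 4 (adjusted p up to 0.41). The count of 7 was 4 without Western diet replicate 3, the count of 2 was 6 without chow replicate 1, and the P450 count of 4 was 2 without Western diet replicate 3 or chow replicate 2 or 4.

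Acute-phase proteins rose in 5 of 21 tested cases with 0 lower. Lipocalin-2 (Lcn2), an iron-binding protein of inflamed liver, read 11.75, 11.54, 11.54 and 10.24 on Western diet and 9.82, 6.99, 8.46 and 9.43 on chow, a rise of 2.59 (SE 0.51). Western diet replicate 4 stood well below the other fed livers, and chow replicate 1 came close to it. Orosomucoid 2 (Orm2) rose by 1.53, with chow replicate 1 inside the fed range. Serum amyloids Saa1 (0.64) and Saa2 (0.50) did not pass the test. With median scaling 3 members were called higher and 1 lower, and Orm1 (0.57) and Cp (0.55) lost their calls. Complement and coagulation genes were lower in 6 of 29 cases and higher in 2, led by C8b and followed by antithrombin (Serpinc1, -0.47) and prekallikrein (Klkb1, -0.39). The risers were protein S (Pros1, 0.35), which lost its call with median scaling (adjusted p = 0.0906), and the complement component C4b (0.51, adjusted p = 0.0422), which lost it with the replicate block, with median scaling and without any array but chow replicate 1 (up to 0.19).

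**Figure D4:**
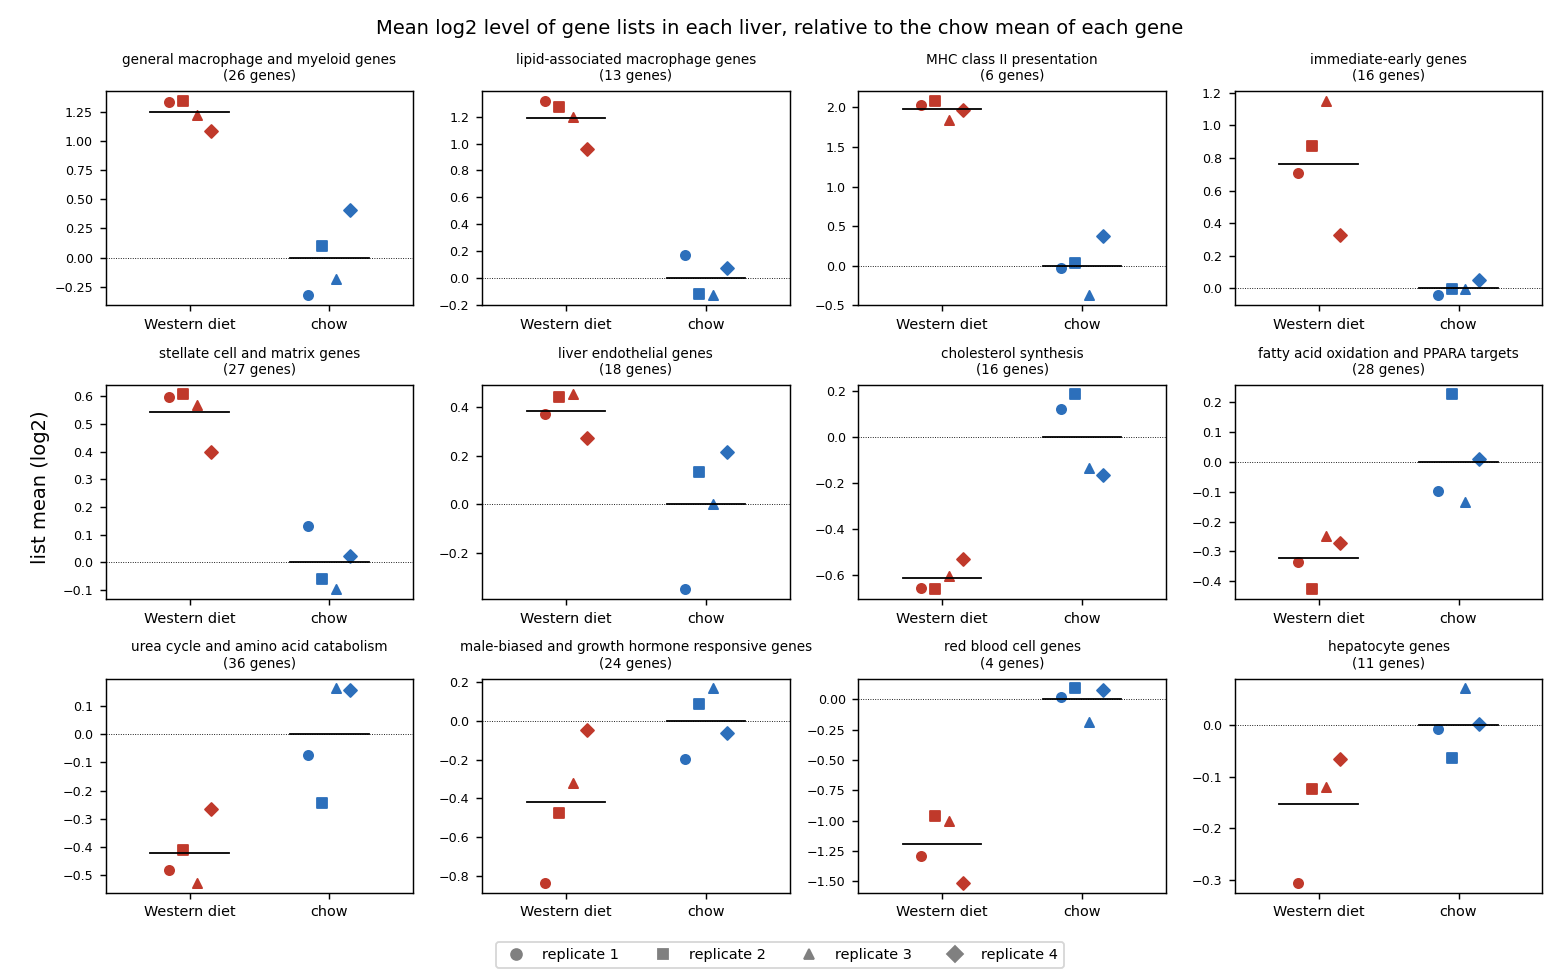
Mean log2 level of 12 gene lists in each liver relative to the chow mean of each gene, Western diet at the left and chow at the right of each panel, with the replicate number shown by the marker and a bar at the group mean. Myeloid, MHC class II and immediate-early lists are higher in all 4 fed livers, and the male-biased list reaches the chow range in Western diet replicate 4.

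Red blood cell genes fell in each of the 4 tested cases, with a median of -1.18. Haemoglobin alpha (Hba-a1) read 12.38, 12.94, 12.94 and 11.76 on Western diet and 14.33, 14.56, 13.49 and 14.35 on chow, a fall of 1.68, and the beta chain Hbb-bt read 8.79, 8.98, 9.32 and 8.34 on Western diet and 10.34, 11.07, 10.28 and 11.23 on chow, a fall of 1.87. The haem synthase of red cells Alas2 fell by 0.68. The list mean was -1.52 to -0.96 in the fed livers and -0.19 to 0.09 in the chow livers, so less red cell RNA moved with the diet beside every other list, and its part in them was not tested. Hepatocyte markers were mostly level, with 3 of 11 tested lower, 0 higher and a median of -0.11, and the count was 0 without Western diet replicate 1 and 1 without chow replicate 3. The 3 were Serpina1a (-0.36), Fetub (-0.36) and Alb (-0.38), whose row does not stand for the level of its transcript. Of 67 tested genes of the respiratory chain and ATP synthase, 8 were lower and 0 higher (median -0.07). Median scaling raised these counts of lower genes to 7 hepatocyte and 33 respiratory genes and made the respiratory median -0.23, so for bright genes such as these the extent of a fall depends on the scaling. Respiratory calls were 4 without Western diet replicate 1 or 2 or chow replicate 3.

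Genes outside these lists stood among the largest decreases. The prostaglandin transporter Slco2a1 read 7.36, 7.72, 7.78 and 7.25 on Western diet and 9.09, 9.15, 9.10 and 9.12 on chow, where the 4 livers were almost level, and fell by 1.59 (SE 0.15). Tsc22d3, a glucocorticoid-induced leucine zipper protein, read 8.96, 9.24, 8.85 and 9.24 on Western diet and 10.30, 10.48, 10.80 and 10.52 on chow, a fall of 1.45. Noct, a circadian nuclease, read 8.75, 8.46, 8.51 and 8.59 on Western diet and 9.17, 9.64, 10.43 and 9.95 on chow, a fall of 1.23. Gnat1, the rod transducin subunit, fell by 1.5, and Zap70, the T cell receptor kinase, by 1.44 at 7.20, 7.19, 6.83 and 7.42 on Western diet and 8.28, 8.28, 9.0 and 8.85 on chow. The Zap70 row fell while the tested T and NK cell list had a median of 0.25. Among increases, vaspin (Serpina12) read 10.74, 10.55, 10.67 and 10.64 on Western diet and 9.84, 9.74, 7.41 and 7.69 on chow, so chow replicates 1 and 2 were more than 2 log2 units above replicates 3 and 4. Its rise of 1.98 became 0.85 between the livers numbered 1 and 2 and 3.11 between those numbered 3 and 4.

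Other lists moved little, apart from the periportal genes. In the unfolded protein response 2 of 22 tested genes rose and 1 fell, with the chaperone Hspa5 at -0.07 and the glutathione-degrading Chac1 higher by 1.31. The other riser, Atf3 (0.78), lost its call without Western diet replicate 2 or 3 or chow replicate 2, 3 or 4 (adjusted p up to 0.0928), and the faller, Sel1l (-0.28), without any array but chow replicate 1 (up to 0.0883). Antioxidant genes had 3 higher and 1 lower of 21, the 3 calls were lost without Western diet replicate 3, and the NRF2 target Nqo1 (0.07) was not called. Cyclin D1 (Ccnd1) rose by 1.28 (SE 0.20) as the only called gene of 9 tested for the cell cycle, and Pcna (-0.11) and Mcm2 (-0.03) were not called. Among 13 clock genes, Per1 fell by 0.85 and Ciart by 0.86, Bhlhe40 rose by 0.92, and Arntl (0.01) and Nr1d1 (-0.05) were not called. Ciart lost its call without Western diet replicate 2 or 3 or chow replicate 2 or 3 (adjusted p up to 0.126), and Bhlhe40 without any array but Western diet replicate 4 and chow replicate 1 (up to 0.0941). Iron genes had 1 higher and 3 lower of 20, the transferrin receptors Tfrc (-0.71) and Tfr2 (-0.44) among the lower. Periportal genes were lower in 5 of 10 cases (median -0.46), the urea cycle and Pck1 genes named above among them, and higher in 1, Ctsc (0.34), which lost its call with median scaling and without Western diet replicate 2 or 3 or chow replicate 3 (adjusted p up to 0.0873). Pericentral genes were lower in 2 of 11 (median -0.10), 0 of them without Western diet replicate 1 or 3. Of 6 tested genes of fetal or tumour liver, Ly6d (1.65) and Golm1 (0.51) rose. Adipocyte and skeletal muscle markers had 0 genes above the filter, and neither of the 2 tested pancreatic acinar genes was called.

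The same contrast in livers labelled Tg gives the setting for these changes. There 758 genes were called, and the response differed between the genotype labels (WT minus Tg, an interaction term of the same fit) in 422 genes, 5.42% of those tested. That count was 262 without chow replicate 3, 276 without Western diet replicate 1 and 277 without Western diet replicate 2. Of the 1463 genes called in livers labelled WT, 311 (21.3%) also had a called interaction. In 218 of these the rise was larger in livers labelled WT and in 2 smaller, and in 89 the fall was larger and in 2 smaller. The interaction uses the same WT arrays that chose the 1463 genes, so this direction is partly fixed by the choice. Among the largest increases, Lpl changed by 3.08 in livers labelled WT and 0.31 in those labelled Tg (interaction 2.77, adjusted p = 0.000652). Gpnmb changed by 2.16 in livers labelled WT and 0.24 in those labelled Tg (interaction adjusted p = 8.78e-05). Lyz2 had 2.61 against -0.09, and Cd74 2.34 against 0.49. The chow levels under the 2 labels were not always alike. The chow mean of Lyz2 was 8.09 in livers labelled WT and 9.55 in those labelled Tg, and that of Vsig4 8.61 and 10.04. For Gpnmb the chow means were 6.27 and 6.18, and for Cd74 9.36 and 9.59. An interaction thus does not tell whether the labels differed on chow, on Western diet or on both.

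For cholesterol synthesis the medians had opposite signs under the labels. The 16 tested genes had a median of -0.50 in livers labelled WT and 0.49 in those labelled Tg, and 13 of them had a called interaction. Msmo1 changed by -1.32 in livers labelled WT and 0.39 in those labelled Tg (interaction -1.71, adjusted p = 0.000652). Its chow mean was 9.69 in livers labelled WT and 12.42 in those labelled Tg. Tm7sf2 had -1.29 against 0.39. Several other genes changed in the same direction under both labels, and their interactions were not called: Csad had -1.61 in livers labelled WT and -2.33 in those labelled Tg, Hbb-bt -1.87 and -1.89, Asl -1.18 and -1.60, Abcg8 0.93 and 1.02, and Thrsp 1.33 and 1.21. A missing call does not show that these responses are equal.

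**Figure D5:**
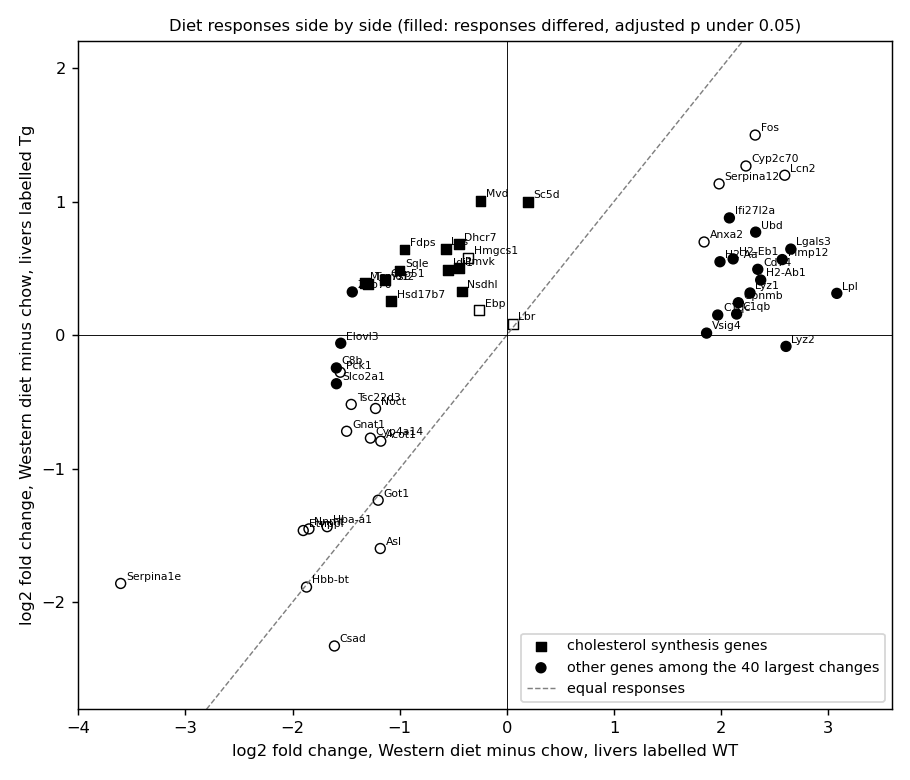
Log2 fold change on Western diet in livers labelled WT (horizontal) and labelled Tg (vertical), filled where the 2 responses differed at an adjusted p under 0.05. Shown are the 40 largest called changes without overlap and the tested cholesterol synthesis genes (squares), with a dashed line of equal responses. Most cholesterol synthesis genes lie in the upper left, and the myeloid genes lie far to the right at low vertical values.

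The raw arrays differed by replicate number in one respect. The 5th percentile of raw signal was 55.0 and 56.6 on Western diet replicates 1 and 2 and 55.5 and 52.25 on replicates 3 and 4, against 62.9 and 61.8 on chow replicates 1 and 2 and 53.4 and 54.3 on replicates 3 and 4. No label names this as a batch. With this split as a term 1560 genes were called. Within replicates 1 and 2 and within replicates 3 and 4, 2 arrays against 2 each, the list medians were 1.28 and 1.02 for general myeloid genes, 1.11 and 0.70 for lipid-associated macrophage genes and 2.17 and 1.94 for MHC class II. They were 0.52 and 0.57 for stellate cell and matrix genes, -0.75 and -0.41 for cholesterol synthesis, -0.33 and -0.21 for fatty acid oxidation and -0.36 and -0.13 for the male-biased list. Some lists changed sign: lipid droplet (-0.13 and 0.26), bile acid transport (-0.20 and 0.02), P450 (0.02 and -0.05), unfolded protein response (0.12 and -0.09), B and plasma cell (0.24 and -0.05), cell cycle (0.17 and -0.09), circadian clock (-0.12 and 0.02) and fetal or tumour liver (-0.03 and 0.01). Cyp2b9 rose by 1.02 in the first pair and 3.20 in the second, and Cyp4a12a fell by 2.69 and by 0.37.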

How the data were processed

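Total liver RNA (250 ng per mouse, RNeasy) was labelled with biotin and hybridised to Illumina expression arrays, per the labels' protocols. The deposited raw intensity values are 1 scanner signal per row and array on a linear scale, not background-subtracted, with no detection p-value. Of the 25697 rows, 12508 had the same values as another row on all 16 arrays, and 18138 distinct sets of values were present. Normalisation and the signal filter were run on all rows, repeated ones included. A log2 value table of the same arrays was also deposited by the authors; no source used here describes its normalisation, it correlated with log2 of the scanner signal at 0.999 or more on each array, and it served as an alternative. Intensities were background-corrected with normexp (offset 50) and quantile-normalised over all 16 arrays with limma 3.58.1 in R 4.3.3. Of 25697 rows, 23978 carried a gene symbol, and 23962 of these matched a RefSeq gene (GRCm38.p6). The 12846 rows in the brighter 50%, ranked by their mean of all 16 arrays (at least 6.29 on the log2 scale), were retained, the brightest row of each gene was used, and 42 symbols that share their values with another gene were left out, leaving 7788 genes. A row cannot show transcripts of close paralogs apart. One limma fit of the 4 groups of 4 arrays gave the diet contrast in livers labelled WT and its difference from that in livers labelled Tg, with Benjamini-Hochberg adjustment over 7788 genes. The fit was tested on simulated data. These had independent errors and fewer changed genes than were called here, and did not cover effects shared by the genes of an array. The number of arrays limits the precision. Replicates are separate mice.

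The comparison, the gene lists and the promoter motifs were chosen with earlier results of these data known. Genes named are the 20 largest increases and the 20 largest decreases among called genes whose groups did not overlap, and members of the lists with their values. Alternatives were other background corrections, median scaling, the value table, other filters, the mean of a gene's rows, an intensity trend, a replicate block, a term for replicates 1 and 2 against 3 and 4, a fit of the 8 WT arrays alone, and leaving out each WT array.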

Additional observations from a re-analysis of the deposited data

Results flagged for a closer look

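Of 170 groups of 4 livers examined for a single distant liver, 8 were singled out by Dixon's test at its 95% critical value, and chance alone singles out about 1 group in 20. Western diet replicate 4 was the lowest of its group for Lgals3 (10.67, the others 11.44 to 11.54) and Lcn2 (10.2, the others 11.54 to 11.75), and for the mean of the chemokine and cytokine list relative to chow (0.42, the others 0.56 to 0.58). Western diet replicate 3 was lowest for the LXR list (0.17, the others 0.28 to 0.31), and Western diet replicate 1 highest for the B cell list (0.43, the others -0.09 to -0.01). Chow replicate 2 was highest for Csad (11.80, the others 11.01 to 11.14). Chow replicate 1 was lowest for the glucose metabolism list (-0.24, the others 0.06 to 0.11) and highest for the pericentral list (0.27, the others -0.12 to -0.07).

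Of the 40 largest called changes without overlap in livers labelled WT, 21 differed from the response in livers labelled Tg by an interaction term in limma (adjusted p 8.78e-05 to 0.0486). The 40 were chosen on the same WT arrays. The response of WT minus that of Tg was 2.77 for Lpl, 2.69 for Lyz2, 2.01 for Lgals3, 2.01 for Mmp12, 1.99 for C1qb, 1.96 for H2-Ab1, 1.96 for Lyz1, 1.92 for Gpnmb, 1.85 for Cd74, 1.85 for Vsig4 and 1.82 for C1qc. It was 1.55 for Ubd, 1.54 for H2-Eb1, 1.44 for H2-Aa and 1.20 for Ifi27l2a. Among decreases it was -1.77 for Zap70, -1.71 for Msmo1, -1.68 for Tm7sf2, -1.49 for Elovl3, -1.34 for C8b and -1.23 for Slco2a1.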

How the results depend on the processing

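The 1463 genes called between the diets became 1250 to 1654 under the other settings that kept the filter or removed it, and 1021 (without chow replicate 3) to 1643 (without chow replicate 1) with 1 array left out. With only the brightest rows of a stricter filter, where 3990 genes were tested, 822 were called for the diet and 260 for the interaction. The 422 interaction calls were 262 without chow replicate 3, 276 without Western diet replicate 1 and 277 without Western diet replicate 2, over a range of 262 to 481. With the replicate number as a replicate block 1460 and 403 genes were called. Same-numbered livers of the 2 diets correlated at -0.12 to 0.06 and other pairs at -0.24 to 0.15. No pairing by number was seen across the diets, though so few pairs cannot exclude one. The 40 largest called changes without overlap kept their calls in each setting that tested them. Their choice by a call and by separate groups favours that outcome. Changes of similar size whose groups overlapped, such as those of Cyp2b9, Cyp17a1 and Cyp4a12a, lost their calls in some settings. Over 341 named or listed called genes, 224 kept their calls in each setting that tested them, and median scaling reversed 3 (B2m, -0.0223, Rps21, -0.0367, and Rps20, -0.0163). Weak signal near background, without detection p-values, limits the low genes most.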

Other observations

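Several gene groups outside the lists above were looked at after their values had been seen, and their counts carry no test. Genes that glucocorticoids induce in liver were mostly lower: of 14 tested, 8 fell and 2 rose, with a median of -0.58 in livers labelled WT and -0.44 in those labelled Tg. Among them the cochaperone of the glucocorticoid receptor Fkbp5 read 6.93, 7.08, 6.82 and 6.76 on Western diet and 7.56, 7.91, 8.41 and 8.15 on chow, a fall of 1.11 with a limma adjusted p of 0.000653. Tsc22d3 (-1.45), Pck1 (-1.55) and Per1 (-0.85) also fell, while Dusp1 (1.73) rose. The calls of Mt2 (-0.65), Klf15 (-0.52), Ddit4 (-0.52) and Sgk1 (0.62) were each lost without single arrays, with adjusted p up to 0.119, 0.0734, 0.103 and 0.144 over all settings in that order. Those of Mt2, Ddit4 and Sgk1 were also lost with the replicate block. Corticosterone values were not used here.

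Histone genes, a family of near-identical copies, were higher in 10 of 32 tested cases and lower in 0 (median 0.21), led by H2ac24 (1.42) and H2ac22 (1.12). Of 67 tested mitochondrial ribosomal protein genes 11 were lower and 0 higher (median -0.13). Of 56 cytosolic ribosomal protein genes 4 were higher and 0 lower (median 0.17). The 4, Rpl5, Rps12, Rps20 and Rps21, lost their calls with median scaling, under which the differences of Rps20 and Rps21 were just below 0. Their family's median in livers labelled Tg was -0.14. Of 34 proteasome subunits 9 were lower and 2 higher (median -0.11).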
